A study of Mus musculus with 12 samples.

Results

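The genes for the proteins of the cytosolic ribosome were followed in the geniculate ganglion, the cranial ganglion that holds the cell bodies of taste neurons, of mouse embryos at embryonic day 14.5. Members were chosen by symbol alone: every symbol of the form Rpl or Rps with a number, together with Rplp0, Rplp1, Rplp2 and Rpsa, and without the genes of S6 kinases, was taken where a probe set matched that symbol and no other. The rule gave 49 genes on 105 probe sets, out of 18193 genes and 45037 probe sets tested on an Affymetrix mouse array. Each gene was read from its brightest probe set, the one with the highest mean log2 intensity over all arrays. The members comprised 20 proteins of the large subunit, 21 of the small subunit, 2 proteins of the ribosomal stalk and 6 paralogs of ribosomal proteins.

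RNA of 4 groups was hybridized, with 3 arrays each. NT4 knockout and NT4 wild type embryos came from a line on the 129 background (the NT4 line), and BDNF knockout and BDNF wild type embryos from a line, called the BDNF line here, of C57BL/6J background. BDNF and NT4 are neurotrophins. Neither the number of embryos behind an array nor the design of either mutant allele is given in the sources used here, and the p-values below measure the spread between samples that the labels call biological replicates. Because each line had its own strain and its own wild types, strain and colony cannot be told apart between lines.

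The ribosome translates mRNA into protein: its small subunit reads the codons and its large subunit joins the amino acids. Ribosomal proteins are needed in near-equal amounts, and in mammals their mRNAs typically begin with a C followed by a run of pyrimidines, the terminal oligopyrimidine (TOP) tract, through which mTOR signalling sets how well they are translated. BDNF and NT4 both bind the receptor TrkB, which signals to mTOR and S6 kinase, and ribosomal protein S6, the product of Rps6, is the classical phosphorylated target of that kinase.

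The start of transcription was looked at first, because the tract is a sequence feature known from mRNAs of the family. RefSeq promoters (build GRCm38.p6) were matched by symbol for 43 of the 49 genes. A C lying at most 5 bases from the annotated start and followed by at least 4 more pyrimidines on the transcribed strand was found in 20 of the 43 genes (46.5%), against 21.5% of 17491 protein-coding genes. The complementary run of purines was found in 14.0% of the members and 25.1% of all these genes. In the whole promoter window, from 250 bases before to 50 bases after the start, CCGGAAG on either strand, the core of ETS-type motifs, was present in 48.8% of the members and 12.9% of all these genes. GGGCGG on either strand, the core of the Sp1 motif, was present in 58.1% of the members and 49.2% of all these genes. A match is a description of the letters in this window only, and an annotated start can lie some bases from the true one. The windows below run from 20 bases before the annotated start to 10 bases from it, 5′ to 3′ on the transcribed strand, with the tract in capitals. The first 5 show how the tract looks in members (the run can go on past the window), and the last 3 are genes whose line difference is described further on and in which no tract was found at the annotated start. Line differences on probe sets of Rps6, Rps18 and Rps9, which have a tract, are described there too.
Rps6, chr4:86857358-86857387, minus strand: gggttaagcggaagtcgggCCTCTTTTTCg
Rps18, chr17:33955656-33955685, minus strand: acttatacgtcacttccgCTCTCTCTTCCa
Rpl35, chr2:39005122-39005151, minus strand: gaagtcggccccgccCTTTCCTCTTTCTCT
Rplp2, chr7:141447631-141447660, plus strand: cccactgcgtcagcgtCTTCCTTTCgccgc
Rps9, chr7:3704021-3704050, plus strand: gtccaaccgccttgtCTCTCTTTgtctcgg
Rps25, chr9:44407694-44407723, plus strand: tcctttttttccgacatcttagcgaggctg
Rplp0, chr5:115559447-115559476, plus strand: acgtcgtcttcgggtttcgaggaccgcctg
Rpsa, chr9:120127746-120127775, plus strand: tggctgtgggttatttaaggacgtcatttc

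Most of the family was among the brightest signals on the arrays. A mean log2 intensity of 12, a level chosen after the values were seen, parts 35 bright genes from 14 dim ones. The lowest bright gene was Rpl8 (mean log2 intensity 12.73), and the next below it was the paralog Rpl22l1 (11.97). Probe set brightness depends on the probes, so the dim group is not a list of weakly expressed genes: it holds core proteins such as Rps16 (3.97), Rpl37 (4.47), Rps27 (6.52) and Rps6 (9.54). Ribosomal protein genes have many processed pseudogenes, and 110 further probe sets matched a ribosomal protein symbol and at least 1 other symbol. These are not members. For 29 symbols, among them Rpl3, Rpl5, Rpl36al and Rplp1, such shared probe sets were all there was. The rule found no probe set for the paralog Rpl10l.

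The targeted genes were read as a check of the labels. Probe set 1422168_a_at of Bdnf averaged 25.1 ± 1.79 in BDNF knockouts and 233 ± 60.0 in BDNF wild types (SD, n = 3 each), so it fell by 3.18 on the log2 scale (SE 0.25, limma adjusted p = 0.00176), while the gene's other probe set differed by 0.27 (SE 0.17). Ntf5, the gene for NT4, was dim, at 38.6 ± 3.29 in NT4 knockouts and 41.1 ± 6.56 in NT4 wild types (SD, n = 3 each), so its probe set does not show the deletion and checks no label. The same probe set was at 137 ± 17.3 in BDNF knockouts and 125 ± 19.3 in BDNF wild types (SD, n = 3 each), and the log2 difference between NT4 wild types and BDNF wild types was -1.61 (SE 0.16, limma adjusted p = 5.84e-05). Of 12 sensory neuron markers 11 were measured, and none of them averaged under an intensity of 20. Array medians ran from 168 to 201. NT4 knockout replicate 3 had the highest array median and stands apart in the ribosomal proteins, as described next.

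The family's level differed between arrays. The median log2 intensity of the 49 genes was 13.16, 13.09 and 12.94 on the NT4 knockout arrays and 13.10, 13.10 and 13.08 on the NT4 wild-type arrays. It was 13.22, 13.24 and 13.13 on the BDNF knockout arrays and 13.17, 13.20 and 13.19 on the BDNF wild-type arrays. NT4 knockout replicate 3 was thus the lowest of all 12 arrays, and every NT4 line array lay below every BDNF wild-type array. The upper quartile of log2 intensity over all genes also split by line, at 10.23 to 10.27 in the NT4 line and 10.37 to 10.38 in the BDNF line. After quantile normalization 1 array broke the family's order of NT4 line below BDNF wild types. NT4 knockout replicate 1 was at 13.20, above every BDNF line array (up to 13.18). The other NT4 line arrays, at up to 13.13, stayed below every BDNF wild-type array, at 13.14 or more. Of the 35 bright genes, 32 had their lowest NT4 knockout value on NT4 knockout replicate 3, and 30 had their lowest value there among the 6 arrays of the NT4 line. The median over bright genes of the SD of log2 intensity was 0.12 in NT4 knockouts, 0.03 in NT4 wild types, 0.04 in BDNF knockouts and 0.03 in BDNF wild types. With every array centred on its own median, NT4 knockout replicate 3 lay further off, at 12.77, with the other 2 NT4 knockout arrays at 13.11 and 13.02. On that array the summed intensity of 10 macrophage markers was 3298, against 5079 and 5258 on the other NT4 knockout arrays. That of 6 endothelial markers was 1741, against 2843 and 2654, and that of 11 sensory neuron markers was 90984, against 81801 and 90371. Sums of the other marker lists lay below, between or above those of the other NT4 knockout arrays. The part of these values in the family's low level was not tested.

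**Figure D1:**
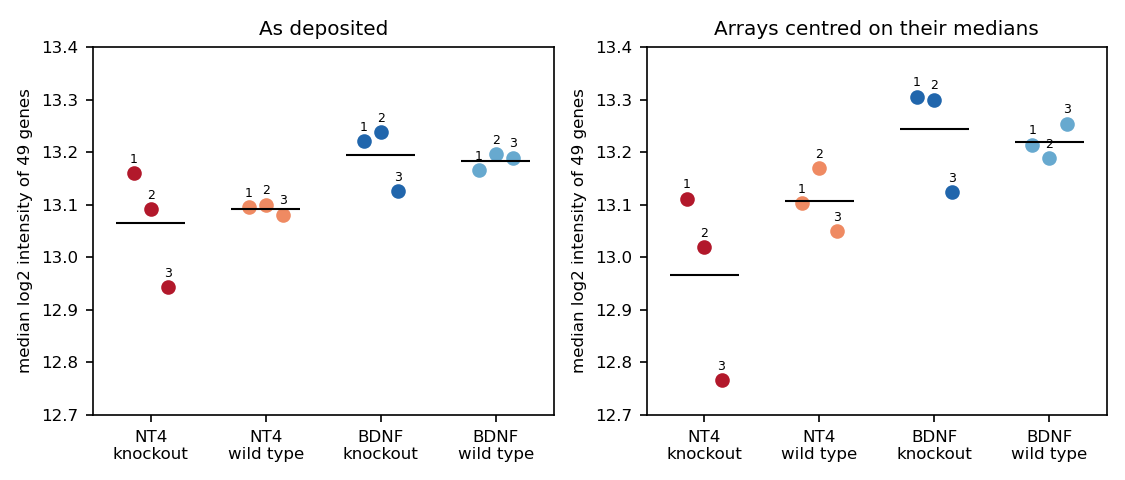
Median log2 intensity of the 49 ribosomal protein genes on each of the 12 arrays, as deposited (left) and with each array centred on its median (right). Points are arrays with their replicate numbers and lines are group means. NT4 knockout replicate 3 is the lowest array on both scales, at 12.94 and 12.77.

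No ribosomal protein gene passed the test in the NT4 knockout. Of 49 genes, 0 had a limma adjusted p under 0.05, against 0.00444% of all probe sets and 0.0055% of all genes, and 0 had an unadjusted p under 0.05, against 3.08% of all genes higher and 1.54% lower. The log2 difference, NT4 knockout minus NT4 wild type, was above 0 in 17 genes and below 0 in 32, with a median of -0.01 over the family and 0.03 over all genes. The 35 bright genes lay between -0.15 and 0.08, and their 95% confidence intervals between -0.46 and 0.35. This sign rested on 1 array: without NT4 knockout replicate 3 the family's median was 0.04, with 40 of 49 genes above 0, and among the bright genes 30 of 35 were above 0, with a median of 0.03. It also moved with the scaling. With arrays centred, which shifts the median of all probe sets from 0.05 as deposited to -0.07, 3 of 49 genes were above 0 and the family's median was -0.13; after quantile normalization 19 were above 0.

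The gene with the lowest p was Rpl37, a large-subunit protein with a very dim probe set. Its intensity was 14.2, 19.4 and 14.6 in NT4 knockouts, against 27.0, 17.4 and 26.2 in NT4 wild types. The groups overlapped, and the log2 difference of -0.54 (SE 0.25) had a limma unadjusted p of 0.0567 and an adjusted p of 0.892. Rps27, a zinc-finger protein of the small subunit, was at 97.9, 89.8 and 64.8 in NT4 knockouts, against 100.8, 120.9 and 102.6 in NT4 wild types. Every knockout array was below every wild-type array, by -0.38 on the log2 scale (SE 0.25, limma adjusted p = 0.931). Rpl38, known in mice for a role in the translation of Hox mRNAs, was the only other member whose groups did not overlap; it was picked out after its values were seen. It was at 15360, 15405 and 14864 in NT4 knockouts, against 15843, 15870 and 15768 in NT4 wild types, a log2 difference of -0.06 (SE 0.09). These 2 of 49 genes without overlap compare with 4.77% of all genes that were lower without overlap, and 0 members were higher without overlap, against 6.71% of all genes.

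Other low p-values in the NT4 knockout belonged to Rps26 (log2 difference -0.15, SE 0.12), Rpl7a (-0.12, SE 0.12) and Rpl14 (-0.21, SE 0.23) on the lower side. On the higher side they belonged to Rpl12 (0.46, SE 0.44), Rpl22 (0.08, SE 0.13), Rps19 (0.06, SE 0.10), Rps25 (0.17, SE 0.34) and Rpl39l (0.33, SE 0.73). None had an adjusted p under 0.89. Rps26 moved to -0.01 without NT4 knockout replicate 3. Rps19, mutated in Diamond-Blackfan anaemia in humans, was at -0.06 with arrays centred.

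No ribosomal protein gene passed the test in the BDNF knockout either. The count was 0 of 49 at a limma adjusted p under 0.05, against 0.0178% of all probe sets and 0.022% of all genes (0.011% higher and 0.011% lower). Without adjustment, at p under 0.05, it was also 0, against 2.16% of all genes higher and 3.93% lower. The log2 difference, BDNF knockout minus BDNF wild type, was above 0 in 37 genes and below 0 in 12, with a median of 0.03 over the family and -0.02 over all genes, of which 44.6% were above 0. Among the 35 bright genes 32 were above 0. They lay between -0.01 and 0.09, with 95% confidence intervals between -0.27 and 0.41, and with SEs of 0.08 to 0.15. For a bright member, this fit could therefore have missed a shift of the size of those intervals, and the SEs of dim members reached 0.73. These SEs rest on a spread shared by all 4 groups and drawn by eBayes towards that of all probe sets. The median SD of log2 intensity over bright genes was 0.04 in BDNF knockouts and 0.03 in BDNF wild types. Centred and quantile-normalized arrays gave 40 and 37 genes above 0.

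The values of 3 bright members, picked because their groups did not overlap, show how narrow their spread was. Over dim members the median SD of log2 intensity was 0.32 in BDNF knockouts and 0.34 in BDNF wild types. Rpl37a, of the large subunit, was at 12597, 12791 and 12418 in BDNF knockouts, against 12271, 11872 and 12239 in BDNF wild types. Rps18, of the small subunit's head, was at 14320, 14266 and 14404 in BDNF knockouts, against 14207, 14089 and 14155 in BDNF wild types. Rps28 was at 14085, 14045 and 14151 in BDNF knockouts, against 13934, 13823 and 13413 in BDNF wild types. In each of these 3 genes every knockout array exceeded every wild-type array, and the log2 differences were 0.06 (SE 0.09), 0.02 (SE 0.09) and 0.04 (SE 0.09). These 3 of 49 genes were the members without overlap, all higher, against 4.19% of all genes. In the other direction, 0 members were lower without overlap, against 6.81% of all genes.

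By unadjusted p, the higher members in the BDNF knockout were Rps16 (log2 difference 0.20, SE 0.24), Rpl22l1 (0.09, SE 0.13), Rpl22 (0.09, SE 0.13), Rps7 (0.07, SE 0.10) and Rps29 (0.05, SE 0.08). The lower ones were Rpl7l1 (-0.26, SE 0.24), Rps27 (-0.24, SE 0.25), Rpl39 (-0.19, SE 0.22), Rpl12 (-0.29, SE 0.44) and Rpl3l (-0.12, SE 0.21). The lowest limma adjusted p was 0.95. Among the lower ones Rpl12 and Rpl3l changed sign when a BDNF knockout array was left out, to 0.25 without replicate 1 and to 0.11 without replicate 2.

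**Figure D2:**
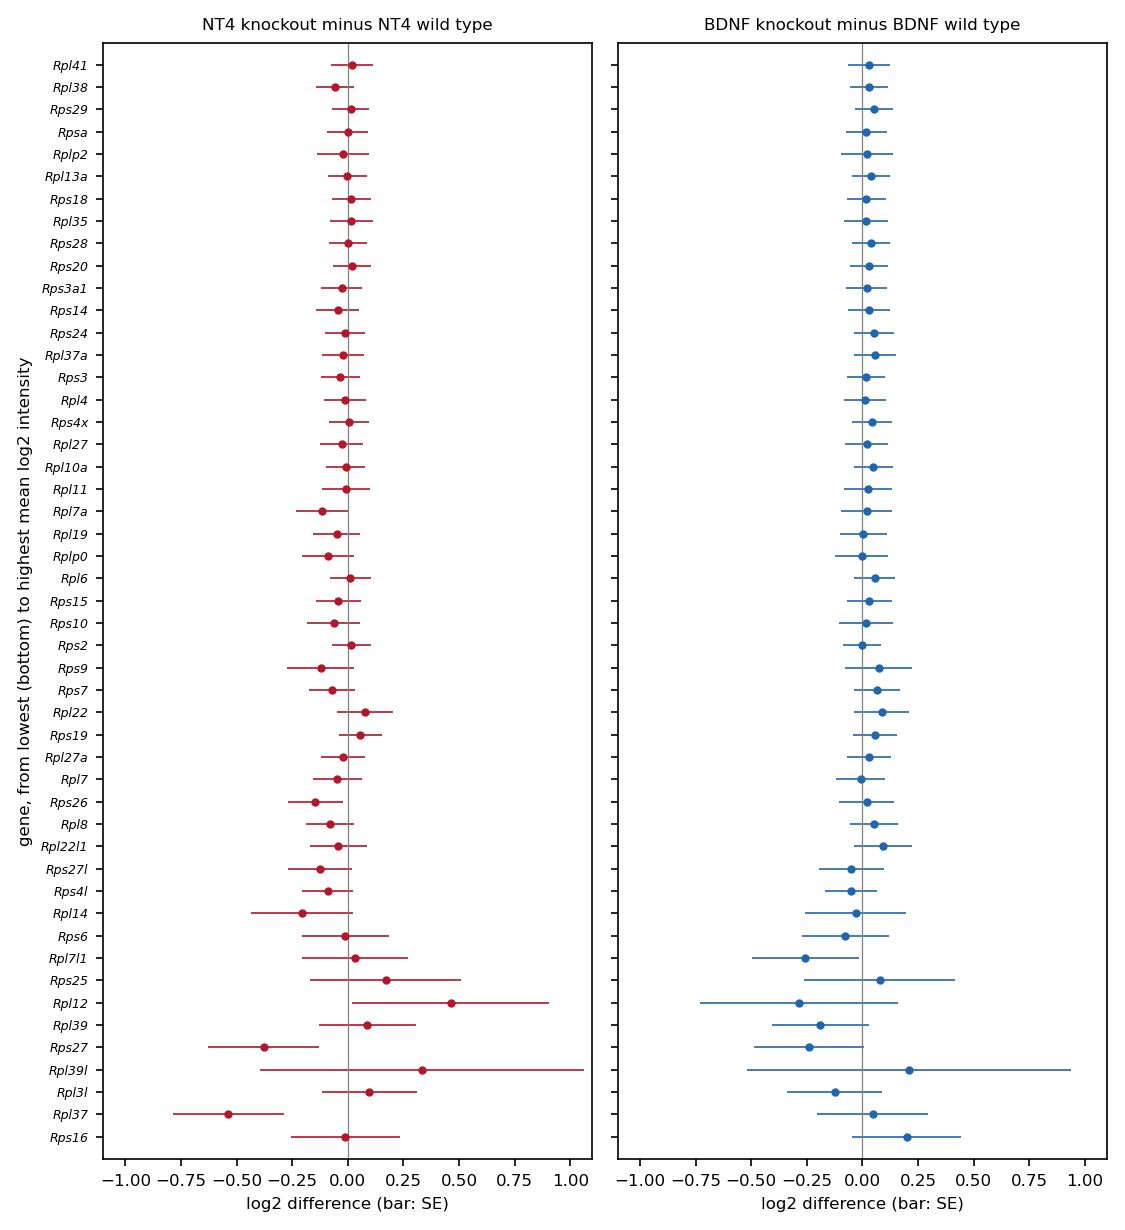
Log2 difference of each of the 49 ribosomal protein genes in the NT4 knockout (left) and the BDNF knockout (right), each against its own wild type, with bars for the limma SE. Genes run from the dimmest at the bottom to the brightest at the top; the bright members lie between -0.15 and 0.08 on the left and between -0.01 and 0.09 on the right, and wide bars belong to dim probe sets.

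The subunits were also read apart. In the NT4 knockout the median log2 difference was -0.02 for the large subunit (6 genes above 0, 14 below) and -0.01 for the small subunit (8 above, 13 below). In the BDNF knockout it was 0.03 for the large subunit (16 above, 4 below) and 0.03 for the small subunit (18 above, 3 below). The stalk proteins recruit translation factors to the ribosome. Rplp0 was at -0.09 (SE 0.12) in the NT4 knockout and -0.00 (SE 0.12) in the BDNF knockout, and Rplp2 at -0.02 (SE 0.12) and 0.02 (SE 0.12). Rpl11, which binds the p53 regulator MDM2 when ribosome assembly is disturbed, was at -0.01 (SE 0.11) in the NT4 knockout and 0.03 (SE 0.11) in the BDNF knockout. Rpl10a, a large-subunit protein, was at -0.01 (SE 0.09) and 0.05 (SE 0.09) in the same order. Rps6 itself was at -0.01 (SE 0.20) in the NT4 knockout and -0.08 (SE 0.20) in the BDNF knockout.

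Genes next to a targeted locus can carry the strain of the targeted cells. Members on the same chromosomes were looked at, but their distances from the targeted genes were not measured, so they need not lie next to them. Bdnf lies on chromosome 2, with Rpl7a, Rpl12 and Rpl35; their log2 differences in the BDNF knockout were 0.02, -0.29 and 0.02. Ntf5 lies on chromosome 7, with 7 members, whose log2 differences in the NT4 knockout ran from -0.12 to 0.06. Neither set held a called gene, which follows from there being no called member in either knockout.

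The difference between the effects was tested as well. For the BDNF effect minus the NT4 effect, 0 of 49 genes passed the limma test (0.0111% of all probe sets and 0.0055% of all genes did), and the lowest adjusted p was 0.89. At an unadjusted p under 0.05 the count was 0 as well, against 1.42% of all genes above 0 and 3.54% below. The difference was above 0 in 40 genes, with a median of 0.04, against -0.05 over all genes. Without NT4 knockout replicate 3 it was above 0 in 19 genes, with a median of -0.02. By unadjusted p, the genes above 0 were Rpl37 (0.58), Rps9 (0.20), Rps26 (0.17), Rps7 (0.14) and Rpl8 (0.13). Those below 0 were Rpl12 (-0.75), Rpl7l1 (-0.29), Rpl39 (-0.28), Rpl3l (-0.22) and Rps6 (-0.07). Rps6 was at 0.32 as the median over its probe sets, and Rps9 at 0.04 as that median and at 0.95 (SE 0.57) on its dim probe set 1426958_at.

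For each knockout, the authors' deposited table lists the probe sets they chose. Both lists held 0 of the 105 member probe sets and 0 of the 110 probe sets shared with other symbols. The lists hold 1.49% (NT4) and 1.48% (BDNF) of all probe sets, so a count of 0 is near that background.

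The picture changed between the lines. In NT4 wild types (129) against BDNF wild types (C57BL/6J), 3 of 49 genes were lower past the limma test and 0 were higher, against 13.6% of all genes (5.75% higher and 7.86% lower) and 13.9% of all probe sets. In this fit the share of called members lay below that background, but how far below depended on the fit. In eBayes with trend and robust 6 of 49 members were called, where 6909 of all 45037 probe sets passed. As the median over a gene's probe sets it was also 6 of 49, where 2801 of all 18193 genes passed. With the replicate block it was 1 of 49, where 5182 of all 45037 probe sets passed. In the fit reported here the called genes were Rps6, Rps25 and Rplp0. At an unadjusted p under 0.05 Rpl7l1 joined them, which gave 4 lower members, against 15.2% of all genes, and 0 higher ones, against 9.73%. The median log2 difference was -0.05 over the family and -0.06 over all genes, with 16 members above 0 and 33 below. That split moved with the scaling, to 10 above 0 with arrays centred and 26 above 0 after quantile normalization. Without overlap between groups, 23 of 49 members were lower, a share above the 22.2% of all genes. Another 3 of 49 were higher (Rps7, Rps14 and Rps19), a share below the 13.2% of all genes. Overlap was read on the deposited scale only.

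Rps6 carried by far the largest change among the members. Its probe set 1416142_at was at 290.2, 313 and 235 in NT4 wild types, against 1874, 2275 and 2033 in BDNF wild types. The knockouts repeated this, with 290.0, 350.4 and 205 in NT4 knockouts against 2030.5, 2110.1 and 1726 in BDNF knockouts. No array of the NT4 line came near any array of the BDNF line. The log2 difference was -2.89 in the wild types (SE 0.20, limma adjusted p = 3.62e-06) and -2.82 in the knockouts (SE 0.20, limma adjusted p = 3.86e-06). The wild-type call held in every alternative run, with limma adjusted p-values of up to 0.000195 for this probe set and of 0.0246 as the median over the probe sets of the gene (log2 difference -1.86).

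Other probe sets for S6 did not all share that difference. Rps6 has a second, very dim probe set of its own, 1453466_at, with a log2 difference of -0.84 (SE 0.98, limma adjusted p = 0.676). A further 9 probe sets match both Rps6 and the pseudogene Rps6-ps4. The 4 bright ones among them differed by -0.09 to -0.02 on the log2 scale between the wild types, and none passed the test. The brightest, 1454620_x_at, was at 14490, 14279 and 14385 in NT4 wild types, against 14812, 15351 and 15914 in BDNF wild types. Of the dimmer ones, 1437246_x_at was at 181, 157 and 194 in NT4 wild types, against 8813, 8985 and 9263 in BDNF wild types. Its log2 difference was -5.67 (SE 0.18, limma adjusted p = 3.26e-08). In the opposite direction, 1435962_at was at 299, 306 and 338 in NT4 wild types, against 35.7, 55.3 and 47.2 in BDNF wild types, a log2 difference of 2.79 (SE 0.21, limma adjusted p = 6.53e-06). Probe sets that match S6 sequence thus differed between the lines downwards, upwards or by under 0.1, and the sequences under the probes were not examined here.

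Rps25, a small-subunit protein that internal ribosome entry sites of some viral RNAs require, was read from a dim probe set, 1430978_at. It was at 175, 162 and 239.8 in NT4 wild types, against 276, 797 and 515 in BDNF wild types. The groups did not overlap, but the BDNF wild types were spread widely. The log2 difference was -1.35 (SE 0.34, limma adjusted p = 0.0218) in the wild types and -1.26 (SE 0.34, limma adjusted p = 0.0289) in the knockouts. The wild-type call was lost without BDNF wild type replicate 2 (log2 difference -0.99, adjusted p = 0.0634) or 3 (adjusted p = 0.0669), and without NT4 wild type replicate 1 (adjusted p = 0.0742) or 2 (adjusted p = 0.0829). It was also lost in a fit of the 6 wild-type arrays alone (adjusted p = 0.0833) and without replicate 2 of both wild-type groups (adjusted p = 0.174). A bright probe set that matches Rps25 and 2 other symbols, 1451068_s_at, differed by -0.03 (SE 0.11) between the wild types.

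Rplp0, the stalk's base protein and a common reference gene in quantitative PCR, was the only bright member past the test. It was at 8160, 8574 and 8386 in NT4 wild types, against 11367, 11601 and 11433 in BDNF wild types. In the knockouts it was at 9018, 8150.0 and 6640 in the NT4 line, against 11753, 11664 and 10928 in the BDNF line. All 6 arrays of the NT4 line were below all 6 of the BDNF line. The log2 difference was -0.45 (SE 0.12, limma adjusted p = 0.0271) in the wild types and -0.54 (SE 0.12, limma adjusted p = 0.0099) in the knockouts. The wild-type call did not survive centring (adjusted p = 0.0555), quantile normalization (adjusted p = 0.0504) or the loss of any 1 wild-type array (adjusted p of 0.0668 to 0.093, with log2 differences of -0.47 to -0.44), nor the loss of replicate 2 of both wild-type groups (adjusted p = 0.143). It did hold in a fit of the 6 wild-type arrays alone (adjusted p = 0.0267).

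**Figure D3:**
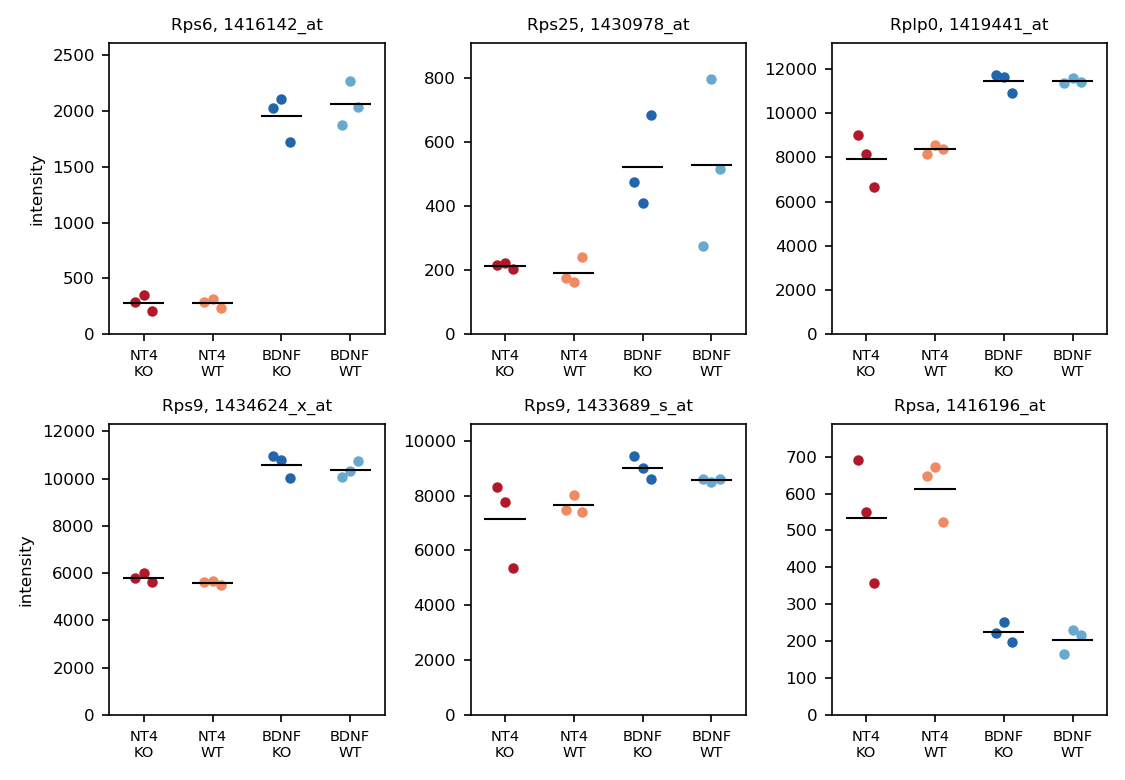
Intensity on each of the 12 arrays of 6 member probe sets, from left to right in NT4 knockout, NT4 wild type, BDNF knockout and BDNF wild type groups (KO, knockout; WT, wild type). Points are arrays, lines are group means, and each axis starts at 0. Rps6, Rps25, Rplp0 and 1 of the Rps9 probe sets are lower in the NT4 line, and the dim Rpsa probe set is higher there.

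The line difference also separated probe sets of 1 gene. Over all 105 member probe sets 8 passed the limma test between the wild types, 7 lower and 1 higher, against 13.9% of all probe sets, so the members' share lay below that background. Of the 8, 2 were above and 6 at or under a mean log2 intensity of 12. Rps9 is a small-subunit protein known from bacteria and yeast for a role in decoding accuracy. Its probe set 1434624_x_at was at 5627, 5670 and 5521 in NT4 wild types, against 10087, 10343 and 10729 in BDNF wild types. Its brightest probe set, 1433689_s_at, was at 7491, 8036 and 7409 in NT4 wild types, against 8611, 8501 and 8604 in BDNF wild types. Both separate the wild types of the lines, but by -0.89 (SE 0.09, limma adjusted p = 5.62e-05) and by -0.17 (SE 0.15, limma adjusted p = 0.571).

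Rpsa, the laminin receptor precursor and a small-subunit protein, showed the reverse. Its dim probe set 1416196_at was at 647, 671 and 523 in NT4 wild types, against 166, 232 and 216 in BDNF wild types, a log2 difference of 1.59 (SE 0.23, limma adjusted p = 0.00078). Its brightest probe set, 1448245_at, was at 15274, 15344 and 16355 in NT4 wild types, against 15320, 15291 and 14496 in BDNF wild types, groups that overlap and differ by 0.06 (SE 0.09). The other called probe sets were those of Rps18 (1421838_at, log2 difference -1.39, SE 0.28), Rps20 (1450417_a_at, -0.84, SE 0.23) and Rpl22 (1448398_s_at, -0.41, SE 0.11). The brightest probe sets of the same genes differed by -0.03, -0.04 and -0.21. Probe sets of Rpl35 and Rpl41 also departed by over 1 from the brightest in some contrast, without passing the test.

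**Figure D4:**
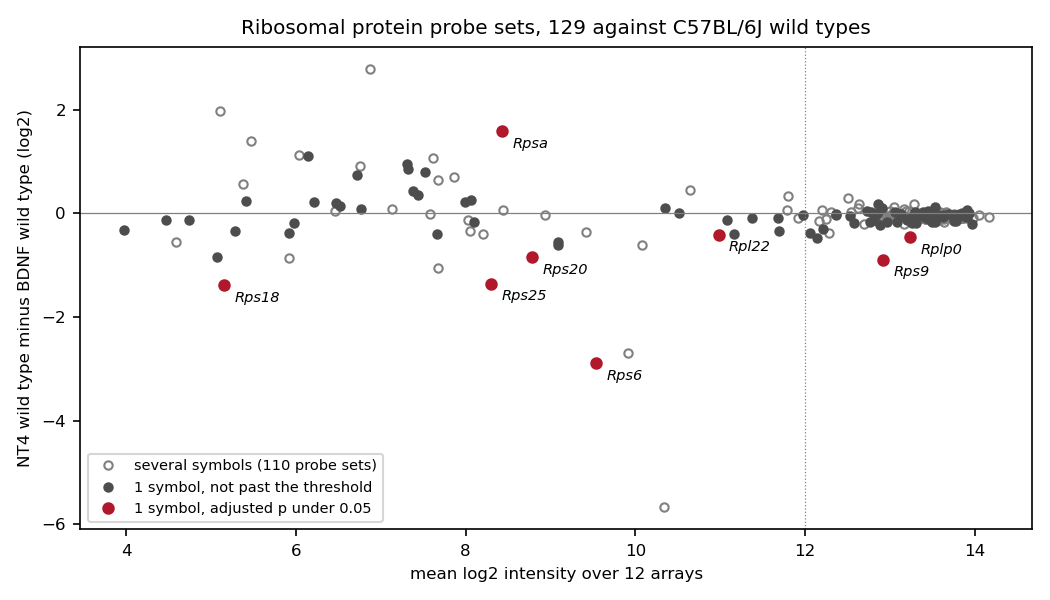
Log2 difference between NT4 wild types and BDNF wild types against mean log2 intensity, for the 105 member probe sets (filled) and 110 probe sets that match further symbols (open); red marks members past the limma test. To the right of the dotted line at 12 the points gather near 0, with Rplp0 and Rps9 below them, and wider differences lie to the left; as the x axis averages both lines, a large difference itself moves a point to the left.

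Among genes with at least 2 bright probe sets, of which there were 17, the log2 differences of these probe sets agreed closely in the knockouts. The median range within a gene was 0.03 in the NT4 knockout and 0.02 in the BDNF knockout. The largest range was 0.17 (Rps9) in the NT4 knockout and 0.07 (Rpl13a) in the BDNF knockout. Between the wild types of the lines the median range was 0.07 and the largest 0.72 (Rps9). Of the probe sets shared with other symbols, 0 of the 82 bright ones passed the test between the wild types, with log2 differences of -0.38 to 0.29 and a median of -0.05. Of the 28 dim ones 11 passed, 7 higher and 4 lower. The mean over all arrays is itself lowered by a line difference: with bright taken as a group mean above 12 in any of the 4 groups, a split added after the values were seen, 1 of 84 passed (1437246_x_at) and 10 of the other 26. Of the member probe sets 2 of 67 passed under that split, and 6 of the other 38. Over all probe sets, of any brightness, 13.9% passed between the wild types. Their share was not computed for bright and dim ones apart, so these counts have no background of matching brightness.

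The knockout arrays give a second reading of the line difference. Its group means come from separate arrays, but its test uses the same spread over all 12 arrays as the wild-type comparison. In NT4 knockouts against BDNF knockouts, a comparison added after the wild-type result was seen, 3 of 49 genes passed the limma test, against 15% of all genes (6.98% higher and 7.97% lower). They were the same 3 genes, all lower. The median log2 difference was -0.12 over the family and -0.00 over all genes, with 7 members above 0 and 42 below. NT4 knockout replicate 3, the lowest array for the family (12.94), is part of this comparison. These family values were read on the deposited scale and with all arrays only. Without overlap 19 of 49 members were lower, a share above the 17.4% of all genes. Another 2 of 49 were higher, a share below the 14.2% of all genes. In both comparisons 14 of 49 members were lower without overlap, a share above the 11.9% of all genes. They include Rpl41, the smallest ribosomal protein (-0.20 in the wild types and -0.21 in the knockouts from its brightest probe set), Rpl11 (-0.19 and -0.22) and Rps2 (-0.17 and -0.15), none past the test. The sign of Rpl41 rested on the probe set: between the wild types it was at 0.41 as the median over its probe sets and at 0.96 on its dim probe set 1433530_at. Rps19 was higher without overlap in both (0.19 and 0.19; limma adjusted p = 0.279 in the wild types). Rps14 and Rps7 were at 0.12 and 0.11 in the wild types, and at 0.04 and -0.03 in the knockouts. Of the 8 probe sets called between the wild types all 8 had the same sign between the knockouts, and 6 were called there. The share of all genes or probe sets called in both comparisons was not computed. In the knockout comparison 13 of the 105 member probe sets passed, against 15.6% of all probe sets.

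**Figure D5:**
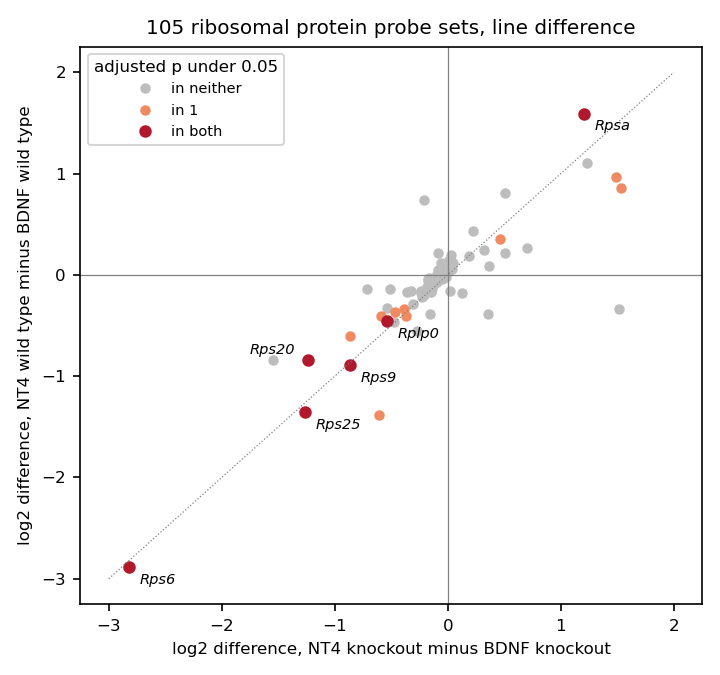
Line difference of the 105 member probe sets in knockouts (x axis, NT4 knockout minus BDNF knockout) and in wild types (y axis, NT4 wild type minus BDNF wild type), both as log2 differences from separate arrays; the dotted line marks equality. Red points passed the limma test in both comparisons and orange points in 1; the 6 red points lie along the line, from Rps6 (-2.82 and -2.89) to Rpsa (1.20 and 1.59).

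The paralogs were read beside their parent genes. Rpl22l1, which can stand in for Rpl22 in the ribosome, was at 4278, 4137 and 3169 in NT4 knockouts and 3971, 3962 and 3897 in NT4 wild types. It was at 4549.9, 4514 and 3877 in BDNF knockouts and 4057, 4158 and 3898 in BDNF wild types. The groups overlapped in both lines. Its parent Rpl22 was at 8288, 7305 and 6197 in NT4 knockouts and 6828, 6755 and 6933 in NT4 wild types, and at 8516, 9101 and 7709 in BDNF knockouts and 8016, 8414 and 7407 in BDNF wild types. Here too the groups overlapped, and the lowest NT4 knockout value of both genes was that of replicate 3.

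Rps27l, a p53-responsive paralog of Rps27, was at 3764, 2918 and 2464 in NT4 knockouts and 3323, 3243 and 3261 in NT4 wild types, and at 3294, 3411 and 3382 in BDNF knockouts and 3745, 3509 and 3203 in BDNF wild types. Its log2 difference between the wild types of the lines was -0.09 (SE 0.14). Rpl7l1, a relative of Rpl7, was at 528, 401 and 484 in NT4 wild types, against 554, 699 and 841 in BDNF wild types. The groups did not overlap, and the log2 difference of -0.56 (SE 0.24) had a limma unadjusted p of 0.042 and an adjusted p of 0.179; in the knockouts it was -0.27 (SE 0.24). Rpl7 itself differed by -0.12 (SE 0.11) between the wild types.

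The remaining paralogs were dim or flat. Rpl39l, known from the testis, was at 291.7, 74.6 and 78.3 in NT4 knockouts and 66.8, 54.9 and 232 in NT4 wild types, and at 27.7, 119 and 39.8 in BDNF knockouts and 34.5, 35.6 and 69.1 in BDNF wild types. Single arrays were several times the others within a group, and its SE of 0.73 was the widest of the family. Its parent Rpl39 differed by 0.09 (SE 0.22) between the wild types. Rpl3l, a paralog of striated muscle, averaged 57.9 ± 11.7 in NT4 knockouts and 53.4 ± 3.24 in NT4 wild types, and 65.4 ± 17.3 in BDNF knockouts and 69.8 ± 7.69 in BDNF wild types (SD, n = 3 each). Rps4l, which RefSeq lists as a transcribed pseudogene, differed by 0.01 (SE 0.12) between the wild types, and its X-linked relative Rps4x by 0.00 (SE 0.09).

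Other genes of the translation apparatus were set beside the family. No gene passed the limma test in either knockout, or in the difference between the effects, among 20 measured partners with TOP mRNAs, 31 ribosome biogenesis genes, 21 initiation factors, 20 genes of mTOR and S6 kinase signalling, 12 p53 targets and 76 mitochondrial ribosomal proteins. Between the wild types, 1 of the 20 TOP partners was lower past the test: Gas5, a snoRNA host gene with a TOP start, averaged 7027 in NT4 wild types and 12152 in BDNF wild types, a log2 difference of -0.79 (SE 0.09, limma adjusted p = 8.97e-05). Of the biogenesis genes 5 of 31 were lower and 0 higher. They were the assembly factor Rrs1 (log2 difference -1.56), Rrp9 (-0.995), the RNA polymerase I subunit Polr1a (-0.82), Nob1 (-0.72) and nucleolin, Ncl (-0.36). The cap-binding factor Eif4e fell by 0.46 on the log2 scale, as 1 of 21 initiation factors, and 0 of 20 mTOR genes passed. Of the p53 targets 3 of 12 were higher, Gadd45a (1.59), Zmat3 (1.48) and Cdkn1a (0.75). Of the mitochondrial ribosomal proteins 2 of 76 were higher and 3 lower. All these counts stand against the 13.6% of all genes called between the wild types.

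Cell type markers moved with the lines in part. The summed intensity of 11 sensory neuron markers ran from 81801 to 90984 in NT4 knockouts and from 85453 to 93082 in NT4 wild types, against 93261 to 96266 in BDNF knockouts and 94566 to 102274 in BDNF wild types. In whole ganglia, fewer cells of a type and less RNA per cell cannot be told apart. Within the NT4 line the sum of 10 macrophage markers ran from 3298 to 5258 in knockouts, against 1923 to 3075 in wild types, and that of 11 cycling-cell markers from 19373 to 24528 in knockouts, against 16668 to 19547 in wild types. All 10 cartilage markers were above 0 in the NT4 knockout (median log2 difference 0.59), with sums of 12410 to 27411 in NT4 knockouts, against 10911 to 13951 in NT4 wild types. All 10 connective tissue markers were above 0 as well (median 0.32), with sums of 30927 to 40049 in NT4 knockouts, against 22805 to 38460 in NT4 wild types. None of the markers of these 4 lists passed the limma test there. Between the wild types, 1 of 10 cartilage markers was above 0 (median -0.66, sums of 10911 to 13951 in NT4 wild types, against 15879 to 23753 in BDNF wild types), and 0 of 6 endothelial markers were (median -0.31, sums of 1903 to 3083 in NT4 wild types, against 2878 to 3579 in BDNF wild types). Their part in the family's values was not tested.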

How the data were processed

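Ganglion RNA of 4 groups, 3 arrays each, was hybridized to Affymetrix arrays; per the labels, it was column-purified, treated with DNase I, amplified with the WT-Ovation Pico system and labelled with biotin. The deposited value table gives a linear intensity per probe set, with scaling and background handling not given in the sources used here. Lists deposited by the authors carry a signed fold change (a score) and an unadjusted p-value, per the file headers, and were used only for membership. The log2 of each deposited intensity was fitted with limma 3.58.1 (lmFit and eBayes, R 4.3.3) on 45037 probe sets, after removal of 64 array controls, with group means of all 12 arrays sharing 1 spread (8 residual degrees of freedom); p-values were adjusted over all probe sets (Benjamini-Hochberg, threshold 0.05, two-sided). The script was tested on simulated data. The median SE of a log2 difference was 0.20; the number of arrays limits the precision. Gene symbols came from the platform annotation: 34945 probe sets had 1 symbol, 932 several and 9160 none.

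Genes named are those past the test, the 5 higher and 5 lower members of lowest unadjusted p in each comparison, the paralogs with their parents, the stalk genes, Rpsa, Rps6, Rps19, Rpl11 and Rpl10a, members whose probe sets disagree by over 1, and others said to be picked by their values. The members and lists were chosen with earlier results of these data known. Equal replicate numbers were not taken as pairs: correlations of their deviations were 0.03, 0.05 and -0.06 in the BDNF line and -0.16, 0.10 and -0.05 in the NT4 line. Alternatives were centring, quantile normalization, an offset of 16, fits of 6 arrays, a replicate block, a filter on dim probe sets, eBayes with trend and robust, other ways to pick a gene's probe set, arrays left out, and, added later, the line difference between knockouts.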

Additional observations from a re-analysis of the deposited data

How the results depend on the processing

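In both knockouts and in the difference between their effects the count of called members was 0 under every alternative run. With arrays centred, the family's median moved to -0.128 in the NT4 knockout and to 0.170 for the BDNF effect minus the NT4 effect; leaving out single arrays gave -0.066 to 0.042 and -0.022 to 0.104 for these medians, 0.013 to 0.040 in the BDNF knockout and -0.066 to -0.042 between the wild types. The count of 3 members called between the wild types was 1 (Rps6) with the replicate block (adjusted p = 0.0557 for Rps25 and 0.0903 for Rplp0), and 1 (Rps6) without both wild-type arrays of high Xist (replicate 2 of each line). It was 6 in eBayes with trend and robust (with Rpl41, Rps19 and Rps2), where 6909 of all 45037 probe sets passed. As the median over a gene's probe sets it was also 6 (with Rps3, Rps9 and Rpsa), where 2801 of all 18193 genes passed. Leaving out single arrays gave 1 to 3: 1 where replicate 2 or 3 of the BDNF wild types, or replicate 1 or 2 of the NT4 wild types, was left out, and 2 for the remaining wild-type arrays. Rpsa passed as the median over its probe sets (log2 difference 0.82, adjusted p = 0.00193). Of 865 alternative values for single named genes, most belonged to genes without a call in the fit reported. Only Rps6, Rps25 and Rplp0 had a call to lose, and all 17 lost calls were those of Rps25 and Rplp0. A further 3 values gained a call, 0 reversed one, and 10 moved in size or sign without a call. The cause was not tested.

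The limits lie in the arrays. Bright members had intensities of 5020.0 to 17600, with array maxima of 21083 to 23494, and whether such signals understate differences was not tested. Over all probe sets the BDNF knockout gave 8 calls in the fit reported and 0 to 12 in the alternatives. The replicate block left 0 calls over all probe sets in the NT4 knockout (2 without it), the BDNF knockout (8) and the difference between their effects (5), and 5182 between the wild types (6275).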
